A study of Mus musculus with 12 samples.

Results

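Left and right lungs of Intu-knockout mouse embryos were compared by RNA sequencing, with the 6 knockout libraries of a series of 12. They were chosen by their labels alone, genotype Intu knockout and either left or right lung, and fall into 2 groups of 3 libraries numbered 1 to 3. The embryos were at embryonic day 12.5, on a C57BL/6 background, and came from matings in which both parents carried an Intu knockout allele. The other 6 libraries, 3 left and 3 right lungs of wild-type embryos of that age and background, serve here only to show where the knockout differs. The labels do not give the part of Intu that the allele removes, and do not say which libraries share an embryo or whether embryos were pooled, so the p-values reflect the spread among these libraries alone, and that spread may be technical.

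Intu belongs to the CPLANE proteins, which recruit the machinery that builds the primary cilium at the basal body. The primary cilium is the organelle in which vertebrate cells read Hedgehog signals, and in the embryonic lung Sonic hedgehog from the airway epithelium acts on the surrounding mesenchyme. The left lung of the mouse forms a single lobe and the right lung forms several, so the sides differ in branching pattern and shape. Hox genes of the Hoxa cluster are expressed in lung mesenchyme in nested domains, and retinoic acid is a known regulator of that cluster.

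Counts in the 6 knockout libraries summed to 10290103 to 10433701 over 31078 genes, located on chromosomes 1 to 7, on 10 and X, and on a stretch of 8, and 9182 of these genes had enough counts for a test. Levels are counts-per-million (CPM) of the total over those genes on these chromosomes that passed a count filter over all 12 libraries. The totals were adjusted by TMM factors. Summed counts of Intu itself (chromosome 3, 40531286 to 40704774, GRCm38) did not separate the genotype labels, at 26.2 to 31.4 CPM in knockout and 28.2 to 34.0 CPM in wild-type libraries. Gli1, a direct Hedgehog target on chromosome 10, did, at 151 to 186 CPM in knockout and 345 to 394 CPM in wild-type libraries. Lung epithelial markers were present in every knockout library, among them Foxa2 (95.1 to 111 CPM) and Shh (99.1 to 130 CPM). Xist, transcribed from the inactive X chromosome, stood at 118 and 107 CPM on the left and right of number 1, at 912 and 985 CPM in number 2 and at 496 and 388 CPM in number 3. It thus differed between numbers far more than between the sides of one number. In the wild-type libraries Xist stood at 1271 to 2269 CPM, above every knockout library. The part of this in differences between the genotypes was not tested.

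The comparison asked which genes differ between the sides when Intu is lost. With left and right libraries of equal number taken as pairs, edgeR's quasi-likelihood test called 35 of 9182 genes at a Benjamini-Hochberg adjusted p under 0.05. Of these, 14 were lower on the left (0.152% of the genes tested) and 21 were higher on the left (0.229%). Members of the Hoxa cluster and its neighbour Skap2, the retinol-storing enzyme Lrat, the matrix protein Npnt and the transcription factors Eya4, Sox2 and Rfx6 fell, and the imprinted genes Igf2 and Asb4, the chemokine receptor Ackr3, the growth factor Fgf5, the Wnt agonist Rspo3 and the matrix genes Lum and Col8a2 rose. The differences were small, with a median absolute log2 difference of 0.45 over the 33 of these genes described here, against 0.07 over all genes tested.

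These calls rest on the pairing. Without pairs, edgeR called 0 of 9182 genes (0%), with 233 genes below 0.05 before adjustment where chance alone would give 459. No gene was called by DESeq2 (116 below 0.05 before adjustment) or limma-voom (233) either. The paired count was 33 with limma-voom, 2 with DESeq2 and 0 in limma-voom when the number entered as a random effect (624 genes below 0.05 before adjustment). It was 39, 1 and 32 without numbers 1, 2 and 3, each of which leaves 1 residual degree of freedom, and none of the 33 genes was called without number 2. All 33 kept their direction in each of the 10 alternatives tried.

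Lower in the left library of all 3 pairs were 1316 of the genes tested (14.3%), and 1420 (15.5%) were higher in all 3. Left and right groups did not overlap for 748 genes (8.15%). Of the 33 described genes, 32 had one direction in 3 of 3 pairs, and groups did not overlap for 8 of the 13 lower and 4 of the 20 higher ones. These counts come from the libraries that gave the calls and are a description.

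The Hoxa list held more called genes than any other list, all of them lower on the left. The lists were chosen with earlier results of these data known, and this one includes the called neighbour Skap2. Its rank is therefore a description. Of 11 tested members of the list of the Hoxa cluster and its neighbours on chromosome 6, 3 fell, none rose, and 10 had negative values. The list's median log2 difference, left over right, was -0.14, against 0.00 over all genes tested. Hoxa6 (52206288 to 52208722) encodes a homeodomain transcription factor, as the other Hox genes do. It stood at 10.9, 12.2 and 12.8 CPM in left libraries 1, 2 and 3 and at 17.3, 22.3 and 20.8 CPM in the right ones. All left libraries were below all right ones, and the log2 difference was -0.74 (SE 0.11, adjusted p = 0.00226).

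Hoxa7 (52214491 to 52221854) stood at 3.03, 6.52 and 4.43 CPM on the left against 6.84, 9.79 and 7.71 CPM on the right. No left library reached the lowest right one, and the difference was -0.80 (SE 0.17, adjusted p = 0.0292). Hoxa6 was called without number 1 and without number 3 as well, and Hoxa7 was called in neither of these fits.

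Skap2 (51857422 to 52012549), which flanks the cluster and encodes an adaptor protein of Src-family kinase signalling, showed the same direction at a steadier level. It stood at 85.1, 86.4 and 88.0 CPM on the left and at 102, 105 and 108 CPM on the right, with no overlap. The log2 differences of the 3 pairs were -0.27, -0.28 and -0.30, and the fitted one was -0.28 (SE 0.06, adjusted p = 0.0292).

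The genes from Hoxa2 to Hoxa5 were not called. Hoxa5, which is needed for normal lung development, stood at -0.17 (SE 0.06, adjusted p = 0.325), at 349, 317 and 330 CPM on the left and 408, 330 and 390 CPM on the right. Hoxa4 stood at -0.09, Hoxa3 at -0.11 and Hoxa2, the 1 tested member with a positive value, at 0.15, with adjusted p-values of 0.751, 0.701 and 0.55. The antisense transcripts Hotairm1, Hoxaas2 and Hoxaas3 stood at -0.35 (adjusted p = 0.253), -0.14 and -0.07. Use of strand in counting is not given in the sources used here, so reads of these transcripts and of the Hox genes they overlap cannot be told apart. Hoxa4, Hoxa5 and Hoxa6 also lie within the span of the Hoxa3 entry (52169062 to 52213336), on the same strand. Any effect of that overlap on their counts was not tested. Beyond Hoxa7, the genes Hoxa9, Hoxa10 and Hoxa13 had 40, 10 and 18 counts over the 6 libraries and were not tested. Hottip and Hoxa11, toward that end of the cluster, had a count of 0 in all 6 libraries.

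**Figure D1:**
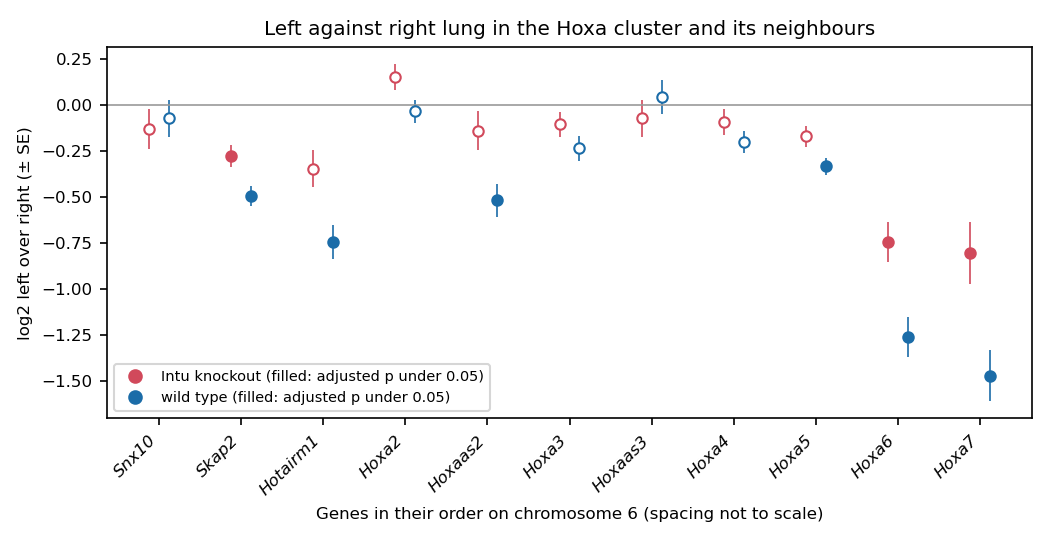
Log2 difference, left over right (vertical axis, ± SE from the paired fits), of 11 tested genes of the Hoxa cluster and its neighbours in chromosomal order (horizontal axis, spacing not to scale), in knockout (red) and wild-type lungs (blue). Filled points are called: Hoxa6, Hoxa7 and Skap2 in both genotypes, and Hoxa5, Hotairm1 and Hoxaas2 in wild type (-0.33, -0.74 and -0.52) but not in the knockout.

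Genes that handle retinoic acid were examined as a group because of its link to the Hox genes. Of 8 tested members, Lrat was called and the other 7 were not, with a list median of -0.10. Lrat (chromosome 3, 82892579 to 82903973) encodes the enzyme that esterifies retinol for storage. Its level was 8.998, 20.5 and 17.3 CPM on the left and 18.0, 31.6 and 23.3 CPM on the right. Each left library was below its partner although the groups overlapped, and the difference was -0.65 (SE 0.11, adjusted p = 0.0058). The retinaldehyde reductase Dhrs3 stood at -0.14 (adjusted p = 0.577), the retinoic acid-degrading enzyme Cyp26b1 at -0.15 and the retinol dehydrogenase Rdh10 at 0.00.

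Among matrix and adhesion genes, Npnt fell and Lum and Col8a2 rose. Npnt (chromosome 3, 132881745 to 132950291) encodes nephronectin, a basement membrane ligand of the integrin that contains Itga8. It stood at 149, 196 and 167 CPM on the left and 205, 239 and 196 CPM on the right, lower on the left in each pair. The difference was -0.32 (SE 0.06, adjusted p = 0.00969). Its receptor chain Itga8 stood at -0.11 and the Fraser complex genes Fras1 and Frem2 at -0.08 and -0.05, and none of the other 8 tested members of that list was called. The list's median was -0.03.

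Lum (chromosome 10) encodes lumican, a small leucine-rich proteoglycan that binds collagen fibrils. It stood at 99.8, 106 and 85.3 CPM on the left against 69.6, 102 and 53.6 CPM on the right. Number 2 thus showed little difference, and the fitted one was 0.40 (SE 0.08, adjusted p = 0.0287). Of 27 tested members of the extracellular matrix list Lum alone was called, and the median was -0.03. Col8a2, a chain of type VIII collagen that is not on that list, rose by 0.45 (SE 0.09, adjusted p = 0.0155), and Htra3, a secreted serine protease, by 0.61 (SE 0.12, adjusted p = 0.015). Htra3 levels were 8.59 to 14.2 CPM on the right and 14.0 to 20.7 CPM on the left.

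Transcription factors were called in both directions. Eya4 (chromosome 10, 23102963 to 23350786), a phosphatase and transcriptional co-activator, stood at 17.1, 15.4 and 17.8 CPM on the left and 23.6, 27.1 and 24.2 CPM on the right. The groups did not overlap, and the difference was -0.57 (SE 0.10, adjusted p = 0.0103). On the same list of mesenchymal transcription factors the homeobox gene Irx3 rose, from 172, 187 and 185 CPM on the right to 201, 242 and 212 CPM on the left (0.27, SE 0.06, adjusted p = 0.0272). Its neighbour in the Iroquois family, Irx5, stood at 0.15 and was not called. The other 16 of the 18 tested members were not called, among them the lung mesenchymal regulators Tbx5 (-0.07) and Tcf21 (0.10), and the list's median was 0.00.

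Sox2 (chromosome 3, 34650405 to 34652461), which marks the proximal airway epithelium and the foregut, stood at 33.3, 30.8 and 34.9 CPM on the left and 47.5, 41.6 and 41.5 CPM on the right. All left libraries were below all right ones, with a difference of -0.40 (SE 0.08, adjusted p = 0.0271). It was the 1 called gene among 14 tested lung epithelial genes, whose median was -0.02. The summed level of that epithelial list was 912, 1048 and 985 CPM on the left and 923, 1068 and 981 CPM on the right. Sox2 is also a member of the stomach and oesophagus list, of which 1 of 3 tested members was called. That list summed to 38.1 to 44.4 CPM on the left and 51.7 to 61.6 CPM on the right, and without Sox2 to 7.38 to 9.53 and 10.2 to 14.2 CPM. Of its defining markers Gkn2 was at 0 in all 6 libraries, Foxe1 was at 0 in 5 of them, and Muc5ac stood at 0.587 to 1.35 CPM on the left and 1.45 to 3.84 CPM on the right (-1.14, adjusted p = 0.258). The part of such tissue in the Sox2 difference was not tested. In bulk RNA, fewer cells of a type and less RNA per cell cannot be told apart.

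Rfx6 (chromosome 10), a transcription factor of gut and pancreatic endocrine cells, fell by 1.02 (SE 0.21, adjusted p = 0.0292) at low levels of 1.44 to 3.33 CPM on the left and 2.40 to 7.13 CPM on the right. Rgs4, which shortens G protein signals, fell by 0.49 (SE 0.10, adjusted p = 0.0213). Its right libraries held 37.5, 18.3 and 20.1 CPM and its left ones 26.3, 13.2 and 14.4 CPM. Tnfsf13b, the B cell-activating cytokine BAFF, fell by 0.40 (SE 0.08, adjusted p = 0.0292) from 31.7 to 36.4 CPM down to 24.1 to 28.1 CPM, with no overlap. Adgrg6, an adhesion G protein-coupled receptor needed for myelination by Schwann cells, fell by 0.36 (SE 0.07, adjusted p = 0.0139). The Schwann cell precursor list held no called gene among 8 tested.

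Smpx of striated muscle and Dcx of neurons fell, and no other tested gene of the cardiac and neuronal lists was called. Smpx (chromosome X), which encodes a small muscle protein, stood at 20.2, 23.0 and 19.9 CPM on the left and 30.7, 30.05 and 28.2 CPM on the right (-0.49, SE 0.09, adjusted p = 0.0133). It was the 1 called gene of 10 tested cardiac genes, of which 6 had negative values, with a median of -0.09. The ventricular myosin light chain Myl2 stood at -0.63 (SE 0.25, adjusted p = 0.461) and the actin gene Actc1 at 0.12. The 17 cardiac genes in the table summed to 102 to 138 CPM on the left and 108 to 145 CPM on the right. Without Smpx the sum was 94.1, 115 and 81.5 CPM on the left and 112, 115 and 80.1 CPM on the right, lower on the left in 1 of 3 pairs. Dcx (chromosome X), which encodes doublecortin of migrating neurons, stood at 106, 95.3 and 115 CPM on the left and 122, 124 and 135 CPM on the right (-0.27, SE 0.06, adjusted p = 0.043). It was the 1 called gene of 10 tested neuronal genes, whose median was 0.04. The neuronal list, with Vip at 0 throughout, summed to 173 to 209 CPM on the left and 199 to 221 CPM on the right. Without Dcx it summed to 103, 77.3 and 79.3 CPM on the left and 99.4, 74.7 and 78.8 CPM on the right, higher on the left in 3 of 3 pairs, while Syt1 stood at -0.72 and was not called. The part of heart or nerve tissue in these differences was not tested. 

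**Figure D2:**
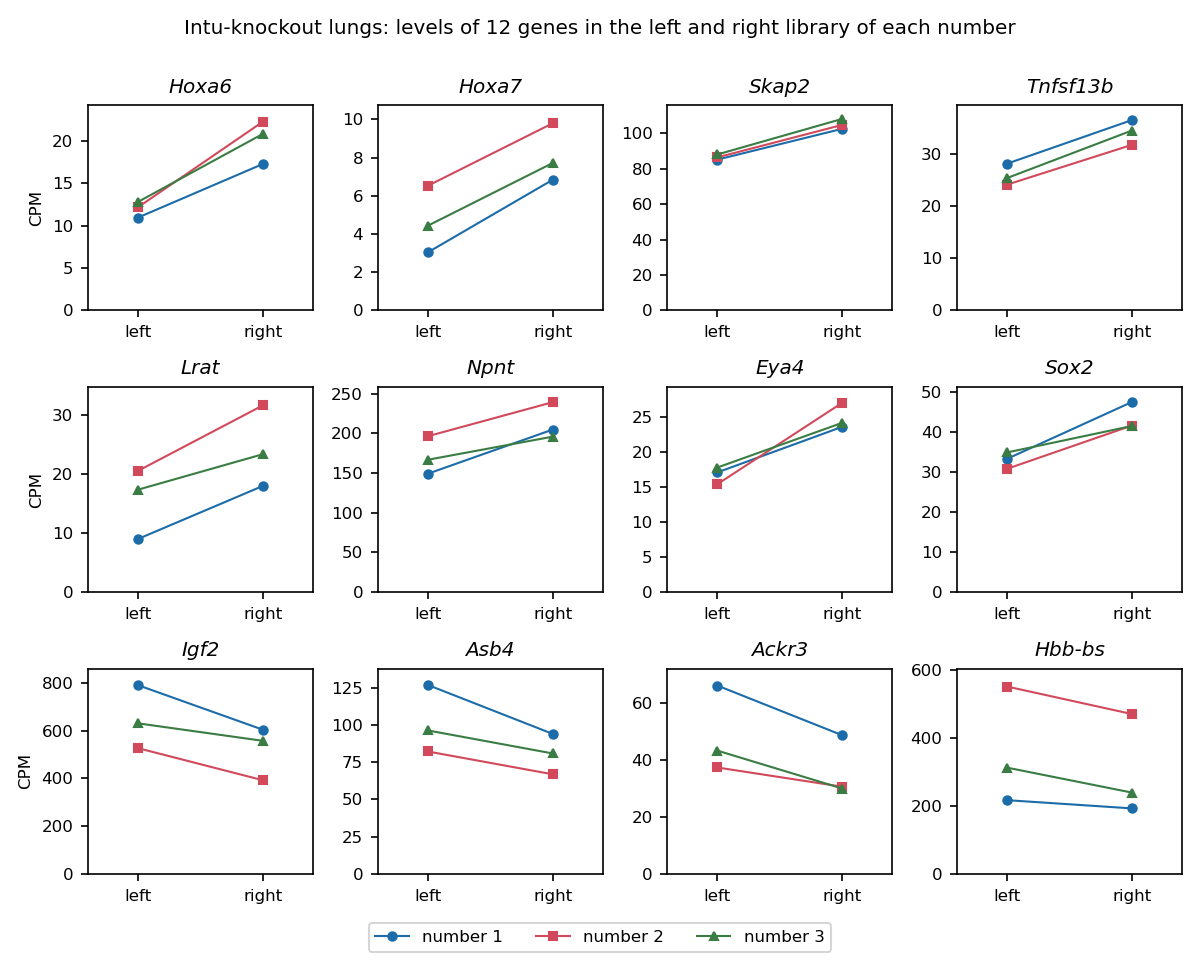
Level in CPM (vertical axes, starting at 0) of 12 called genes in the left and right library of each number; every line joins the 2 libraries of 1 number. All lines fall from right to left for the 8 genes of the top and middle rows and rise from right to left for Igf2, Asb4, Ackr3 and Hbb-bs, and the numbers lie apart in level for several genes, as for Hbb-bs at 217 to 551 CPM on the left.

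Windows of 250 bases upstream of annotated RefSeq starts were searched for AGGTCA, the half-site bound by retinoic acid receptors, on both strands. It was present for 2 of the 13 described genes lower on the left (15.4%). Of the 20 higher ones, 15 had a window and 1 held it (6.67%). Among all 27025 genes with an annotated window, whether tested here or not, 4260 held it (15.8%). The shares of the called genes did not lie above that share. A match in these letters is a description and not a site. The windows of Npnt (chr3:132950292-132950541, minus strand) and Sox2 (chr3:34649745-34649994, plus strand), the lower genes that hold one, are shown 5′ to 3′ in the direction of the gene from RefSeq on GRCm38.p6, with the match, on either strand, in capitals.
Npnt: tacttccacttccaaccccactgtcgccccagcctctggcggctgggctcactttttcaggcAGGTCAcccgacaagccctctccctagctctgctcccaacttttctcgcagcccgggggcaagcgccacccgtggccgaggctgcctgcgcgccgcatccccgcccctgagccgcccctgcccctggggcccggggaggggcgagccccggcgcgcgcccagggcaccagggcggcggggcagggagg
Sox2: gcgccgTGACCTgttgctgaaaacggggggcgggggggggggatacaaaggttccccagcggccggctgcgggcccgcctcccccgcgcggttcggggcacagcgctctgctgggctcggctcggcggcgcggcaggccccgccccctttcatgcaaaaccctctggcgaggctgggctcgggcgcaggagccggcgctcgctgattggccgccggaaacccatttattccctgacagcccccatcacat
In Npnt the match starts 188 bases before the annotated start and in Sox2, on the opposite strand, 244 bases before it.

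Of the genes higher on the left, the imprinted growth genes Igf2 and Asb4 were abundant and rose in each pair. Igf2 (chromosome 7, 142650766 to 142666816) encodes the fetal insulin-like growth factor and is expressed from the paternal allele. It stood at 790, 526 and 630 CPM on the left and at 603, 392 and 557 CPM on the right. The groups overlapped, since number 1 was high and number 2 low on both sides, and the difference was 0.33 (SE 0.06, adjusted p = 0.0058). Igf2 was also the 1 of the 33 genes that DESeq2 called with pairs. Asb4 (chromosome 6, 5383386 to 5433022), a substrate adaptor of a ubiquitin ligase in an imprinted region, stood at 127, 82.2 and 96.4 CPM on the left and 94.0, 66.9 and 80.9 CPM on the right (0.33, SE 0.06, adjusted p = 0.0128). The other 21 of the 23 tested members of the imprinted list were not called, among them H19 (0.17), which shares an imprinted region with Igf2, and Igf1r (-0.17), the receptor. The list's median was 0.04.

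The chemokine receptor gene Ackr3 and the ligand genes Fgf5 and Rspo3 were also called higher. Ackr3 (chromosome 1, 90203980 to 90216751), an atypical receptor that removes the chemokine Cxcl12, stood at 66.3, 37.5 and 43.4 CPM on the left and 48.8, 30.7 and 30.1 CPM on the right. Its difference was 0.42 (SE 0.08, adjusted p = 0.0118), and neither Cxcl12 nor its signalling receptor Cxcr4 was called. Fgf5 (chromosome 5), a fibroblast growth factor, stood at 10.6, 3.16 and 3.95 CPM on the left and 4.78, 2.21 and 1.64 CPM on the right (1.02, SE 0.21, adjusted p = 0.0265). Rspo3 (chromosome 10), which amplifies Wnt signals through Lgr receptors, stood at 10.1, 2.78 and 4.91 CPM on the left and 4.59, 2.40 and 2.03 CPM on the right (0.95, SE 0.21, adjusted p = 0.0465). Both were highest in the left library of number 1, and both were called neither without number 1 nor without number 3. Rspo3 was the 1 called gene among 24 tested Wnt genes, whose median was 0.00. Dact3, an inhibitor of Wnt signalling through Dishevelled that was not on that list, rose by 0.31 (SE 0.07, adjusted p = 0.0296) with no overlap between groups.

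Scn7a (chromosome 2, 66673425 to 66784914), an atypical sodium channel, showed pairs far apart in level and a difference of one direction within each. It stood at 6.85, 27.0 and 15.9 CPM on the left and at 2.93, 17.6 and 7.23 CPM on the right (0.89, SE 0.14, adjusted p = 0.0023). The junction gene Lsr rose by 0.33 (SE 0.07, adjusted p = 0.0292) and Bri3 by 0.32 (SE 0.07, adjusted p = 0.0272), both without overlap, and Tmtc1, an enzyme that mannosylates cadherins, by 0.50 (SE 0.10, adjusted p = 0.0272). Gm18194 (1.00), Gm4895 (1.72) and the ribosomal protein pseudogene Rps2-ps13 (0.31) were also called higher. Reads of a pseudogene can be split between near-identical copies by the counting, so the last value is uncertain.

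Erythroid and myeloid genes lay mostly higher on the left as well, but 1 of them was called. Hbb-bs, an adult beta globin gene, stood at 217, 551 and 313 CPM on the left and 193, 470 and 239 CPM on the right (0.27, SE 0.06, adjusted p = 0.0292). Its near-identical neighbour Hbb-bt stood at 0.21, and the counting may have divided reads between Hbb-bs and Hbb-bt. The embryonic globin Hbb-y stood at 0.18 (adjusted p = 0.316). Of 18 tested erythroid genes 14 had positive values, and 7 were higher and 1 lower on the left in 3 of 3 pairs. The median was 0.21, against 0.00 over all genes tested. The list summed to 3871, 4800 and 3912 CPM on the left and 3784, 4234 and 3385 CPM on the right. Most of this was Hbb-y, at 2539, 3129 and 2533 CPM on the left and 2456, 2646 and 2130 CPM on the right. Of 16 tested myeloid genes none was called, and 9 were higher and 3 lower on the left in 3 of 3 pairs. Over all genes tested those shares were 15.5% and 14.3%. The myeloid median was 0.15, with Lyz2 at -0.44 and the complement genes C1qc and C1qb at 0.34 and 0.32. The lymphatic list also had a median of 0.15, with 0 of 10 called. Of 9 tested platelet and megakaryocyte genes none was called, and 1 was higher and 1 lower on the left in 3 of 3 pairs. That list had a median of 0.19 and summed to 1088, 1415 and 1333 CPM on the left. On the right it summed to 1038, 1567 and 1283 CPM. The part of blood content in the other differences was not tested.

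The largest difference of the genes described came from 1 library. Alb (chromosome 5, 90460897 to 90476602), the albumin of liver cells, stood at 40.3, 0.383 and 2.70 CPM on the left and at 1.27, 0.384 and 1.35 CPM on the right. Its fitted difference was 3.68 (SE 0.40, adjusted p = 1.9e-05), while those of the 3 pairs were 4.99, -0.00 and 1.00. Its neighbour Afp, fetal alpha-fetoprotein, stood at 45.7, 4.31 and 5.58 CPM on the left and 5.37, 3.26 and 4.24 CPM on the right (1.88, SE 0.30, adjusted p = 0.00339). Without number 1 the values of Alb and Afp were 0.80 and 0.40, and neither was called. Of the 12 liver genes measured, 3 were tested, and the remaining one, Itih2, stood at 0.03. The list summed to 109, 15.9 and 24.7 CPM on the left and 21.9, 16.3 and 21.6 CPM on the right, with the liver genes Fabp1 and Cyp3a16 at 0 in all libraries. Without Alb and Afp it summed to 23.1, 11.2 and 16.5 CPM on the left and 15.2, 12.7 and 16.0 CPM on the right. The part of liver RNA in other values of left library 1 was not tested. Hoxa6, Lrat, Eya4, Igf2, Scn7a and Hbb-bs were also called without number 1. Npnt (-0.26), Ackr3 (0.41), Asb4 (0.28), Smpx (-0.44), Sox2 (-0.34) and Skap2 (-0.29) were not called in that smaller fit, with differences close to those of all 3 pairs.

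**Figure D3:**
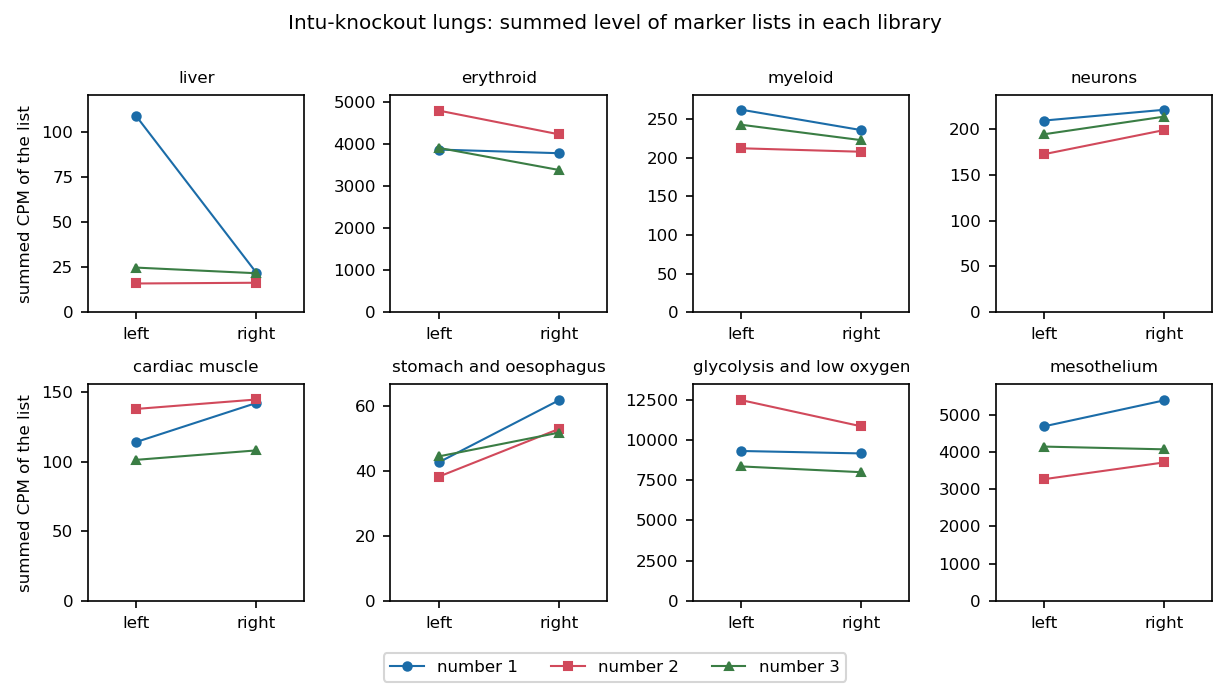
Summed CPM (vertical axes, starting at 0) of 8 marker lists in the left and right library of each number, joined by number. The liver sum of left library 1, 109 CPM, stands apart from 15.9 to 24.7 CPM in the other 5 libraries, while the erythroid sum is higher on the left in each of the 3 numbers; the neuronal and cardiac sums include the called genes Dcx and Smpx.

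Gene groups tied to the known role of Intu held no called gene between sides. Of 6 tested Hedgehog targets none was called, with Gli1 at 167, 186 and 176 CPM on the left and 151, 161 and 180 CPM on the right (0.11, SE 0.06, adjusted p = 0.609), and Hhip, which binds Hedgehog ligands, at 0.15 (adjusted p = 0.468). None of the 8 tested Hedgehog ligand and transduction genes, 28 CPLANE and primary cilium genes and 7 smooth muscle genes was called. Medians of these lists were 0.08 for the targets, 0.00 for the ligand and transduction genes, -0.04 for the cilium genes and -0.05 for smooth muscle. Intu stood at -0.13 (SE 0.09, adjusted p = 0.729).

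Signalling, growth and metabolic lists were similar in this respect. No gene was called among 19 BMP and TGF-beta, 12 FGF, 10 Notch, 23 proliferation, 21 glycolysis and low-oxygen, 10 immediate-early, 7 cartilage, 18 blood endothelial and 10 mesothelial genes. In the glycolysis list, which counts Aldoa under 2 gene IDs, 8 of 21 were higher and 2 lower on the left in 3 of 3 pairs. Over all genes tested the shares were 15.5% higher and 14.3% lower. The list's median was 0.08, and Gapdh, its member with the smallest p, stood at 0.25 (adjusted p = 0.124). Cav1, the caveolar coat protein, came nearest to the threshold among genes of these lists, at -0.35 (SE 0.08, adjusted p = 0.0518). The guidance gene Sema3c stood at -0.25 (adjusted p = 0.0891) and Bmp2 at -0.44 (adjusted p = 0.325).

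**Figure D4:**
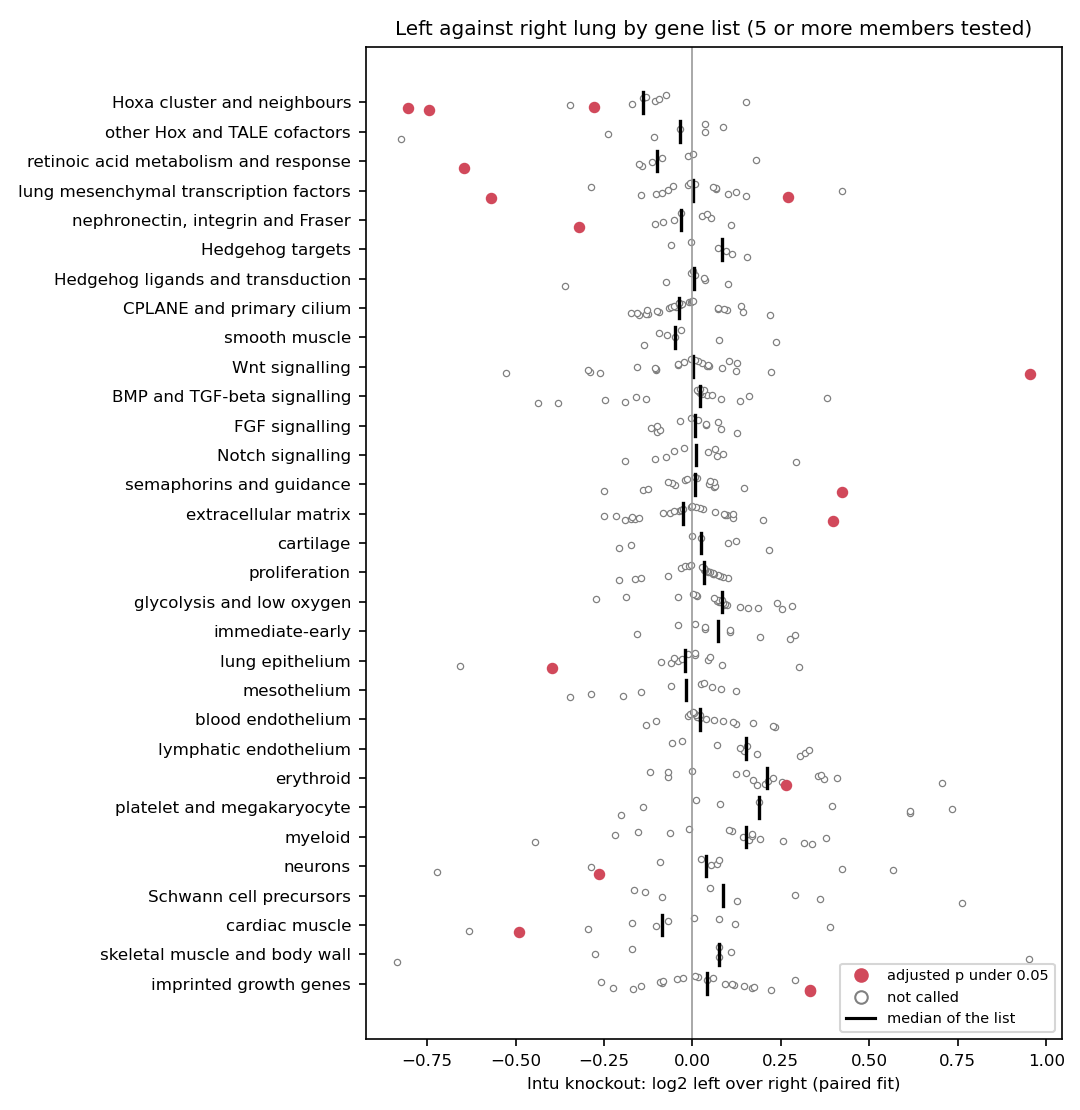
Log2 difference, left over right, in the paired knockout fit (horizontal axis) of each tested gene in the lists with 5 or more tested genes (vertical axis). Red points are called and bars are list medians, which run from -0.14 for the Hoxa list to 0.21 for the erythroid list.

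The side differences of the knockout were then set beside those of wild-type lungs, which share no library with them. In the paired wild-type fit 68 of 9170 genes were called (0.742%), 38 lower and 30 higher on the left. Of these, 14 were called in both genotypes, which is 40% of the knockout calls and 20.6% of the wild-type calls, all with the same direction. Of the 32 described genes tested in both genotypes, 28 had the same direction in wild type, and 21 of these had an unadjusted p under 0.05 there. Over all 8973 genes tested in both, 58.3% had the same direction and 5.35% had it with such a wild-type p. Described genes called in both were Hoxa6, Hoxa7, Skap2, Lrat, Npnt, Rgs4, Tnfsf13b, Dcx, Asb4, Scn7a, Lum and Hbb-bs.

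Read from the wild-type calls, side differences lay nearer to 0 in the knockout. Of 65 such genes, 58 had the same direction in the knockout, 37 of them with an unadjusted p under 0.05, and 61 had the smaller absolute value there. These genes were chosen by their wild-type values, which favours larger values in wild type. Of the 32 described genes tested in both genotypes, chosen by their knockout values, 22 had the larger absolute value in the knockout. Over all genes tested the median absolute log2 difference was 0.074 in the knockout and 0.061 in wild type. A general weakening of side differences in the knockout is therefore not shown. Hoxa7 stood at -1.47 (SE 0.14) in wild type against -0.80 and Hoxa6 at -1.26 (SE 0.11) against -0.74. The BMP antagonist Grem1 was called in wild type (-1.19, SE 0.18, adjusted p = 0.00072) and not in the knockout (-0.38, SE 0.14, adjusted p = 0.424). The lymphatic growth factor gene Vegfd stood at 0.65 in wild type and 0.30 (adjusted p = 0.164) in the knockout, Hbb-y at 0.47 and 0.18, and Hotairm1 at -0.74 and -0.35. Hoxa5 (-0.33, adjusted p = 0.000103) and Hoxaas2 (-0.52, adjusted p = 0.00334) were called in wild type and stood at -0.17 and -0.14 in the knockout, where they were not called.

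Other genes called in the knockout, and so chosen by their knockout values, lay nearer to 0 in wild type or had the opposite sign. Sox2 stood at -0.11 in wild type (SE 0.08, adjusted p = 0.87), at 42.8, 32.2 and 41.3 CPM on the left and 42.0, 40.1 and 42.6 CPM on the right. Smpx stood at -0.19, Ackr3 at 0.12, Dact3 at 0.02 and Irx3 at 0.16, none of them called. Afp (-0.03), Rfx6 (0.03), Gm18194 (-0.42) and Gm4895 (-0.19) had the opposite sign in wild type, and Alb, at 0.0933 to 0.861 CPM, was below the count filter there.

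**Figure D5:**
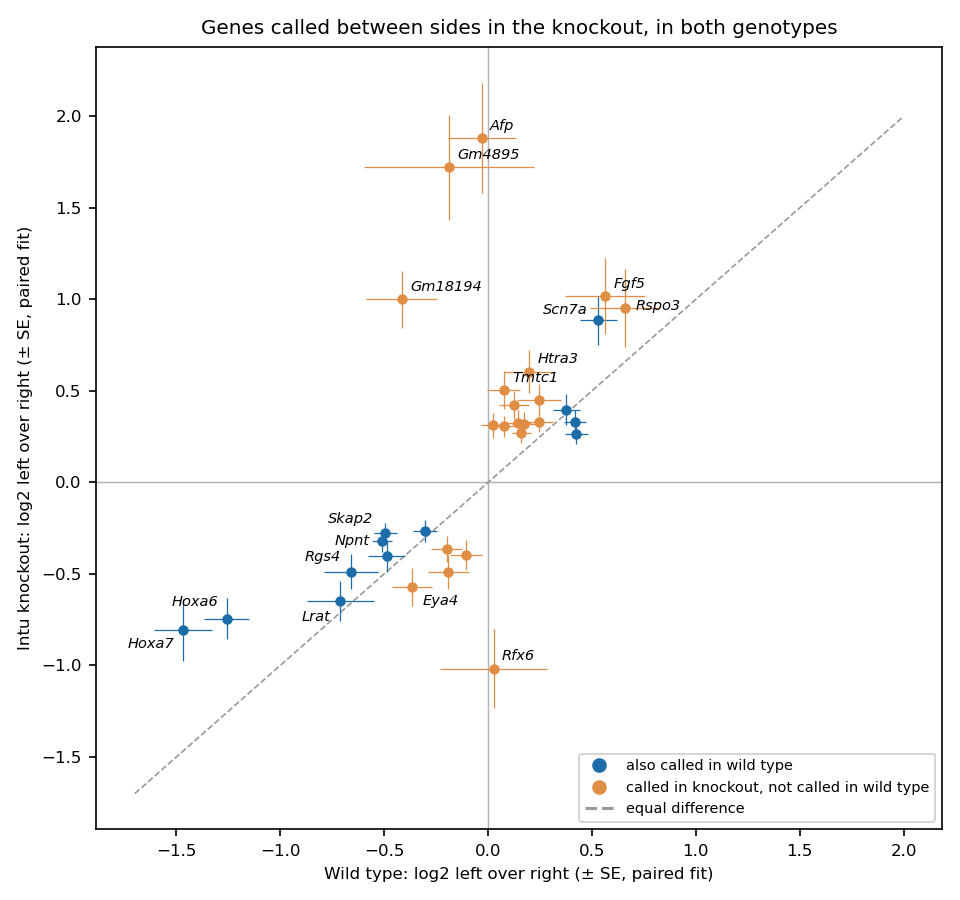
Log2 difference, left over right, in knockout (vertical axis) against wild type (horizontal axis), each ± SE from the paired fits, for the 32 described genes tested in both; the dashed line marks equal differences. Hoxa7 and Hoxa6 lie at -0.80 and -0.74 in the knockout and farther from 0 in wild type, and Afp lies at 1.88 against -0.03.

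Whether a side difference itself differed between genotypes was tested as an interaction in all 12 libraries, with each pair as a block. Of 9519 genes 2 were called (0.021%), Adarb1 and Gm10705, and none of the 33 genes described was among them. The differences, knockout minus wild type, were 0.51 for Hoxa6 (SE 0.15, adjusted p = 0.956), 0.66 for Hoxa7 (SE 0.23, adjusted p = 0.998), 0.81 for Grem1 (SE 0.23, adjusted p = 0.956) and -0.29 for Sox2 (SE 0.11, adjusted p = 0.998). A gene called in 1 genotype alone is therefore not shown to differ between them, and a p above the threshold does not show that the genotypes are alike.

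Adarb1 (chromosome 10, 77290726 to 77418270), which encodes an enzyme that edits adenosine to inosine in RNA, stood in the knockout at 118, 196 and 155 CPM on the left and 124, 202 and 167 CPM on the right. In wild type it stood at 133, 104 and 136 CPM on the left and 97.2, 83.8 and 92.1 CPM on the right. The side difference was thus -0.07 in the knockout and 0.44 in wild type, an interaction of -0.51 (SE 0.08, adjusted p = 0.00409). For Gm10705 (chromosome 3) the side difference was -0.05 in the knockout and 1.52 in wild type, an interaction of -1.57 (SE 0.20, adjusted p = 0.00045).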

How the data were processed

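Total RNA of left and right lungs was sequenced, and the authors deposited a single table of raw read counts for each gene. The submitters' processing notes name HISAT2, featureCounts and the build GRCm38; their versions and the use of strand were not given in the sources used here. A last row on chromosome 8 was incomplete and was dropped (1 row). Genes carry Ensembl IDs in the table, and symbols were matched for 30915 of 31078 genes (99.5%). Totals per library are therefore part of the depth, and genes elsewhere were not analysed here.

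Low counts were removed by filterByExpr by group, with a minimum count of 10 and a minimum total of 15, and libraries were scaled by TMM. The minimum count was not required in every library. The sides were compared in the 6 knockout libraries by edgeR 4.0.16 in R 4.3.3, using glmQLFit with glmQLFTest, without pairs and with the number as a block (2 residual degrees of freedom). Benjamini-Hochberg adjustment covered all genes tested, with a threshold of 0.05. Wild type was fitted alike, and the interaction of genotype and side in 12 libraries with 6 pair blocks. Differences are log2, left over right, and standard errors (SE) are those of the test. Deviations from the group means correlated at 0.267 to 0.527 for knockout libraries of one number, so the numbers were taken to pair the sides. For different numbers the correlations were -0.426 to -0.0356. Subtracting group means pushes these below 0 where those of one number are positive, so they add no separate support. The positive correlation is a hint from the data, not a statement of the labels. Knockout replicates differed by more than sampling noise, with chi-square of 4.71 to 12.8 for each degree of freedom, and the fits were tested on simulated data.

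Of 903 genes in 37 lists, 512 were in the table and 424 were tested; lists overlap. The members and lists were chosen with earlier results of these data known. Genes were named by a rule: Intu, Gli1 and Hhip, the 30 called genes with the smallest p, the 10 with the smallest p in each direction among those with a mean of at least 1 CPM and 3 of 3 pairs in one direction, tested Hoxa genes and 2 genes per list. Lsr, Dact3, Adarb1, Gm10705 and other list members were chosen after their values were seen. Of the called genes, 2 are not reported here. Alternatives were RLE size factors, DESeq2 1.42.0, limma-voom (limma 3.58.1), no count filter, all 12 libraries in the fit and leaving out each number or library.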

Additional observations from a re-analysis of the deposited data

Results flagged for a closer look

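The side differences of 2 genes differed between genotypes in the interaction test. For Adarb1 the log2 difference, left over right, was -0.51 in the knockout relative to wild type (SE 0.08, edgeR quasi-likelihood adjusted p = 0.00409). In wild type it stood at 0.44 (SE 0.06), and every left library exceeded its partner. The knockout pairs stood at -0.07, -0.05 and -0.11. The fitted knockout value was -0.07 (SE 0.05, adjusted p = 0.764) and was not called. A reversal of side in the knockout is therefore not shown. Negative values in every knockout pair were found for 14.3% of all genes tested. For Gm10705, a gene without a descriptive name, the knockout difference relative to wild type was -1.57 (SE 0.20, adjusted p = 0.00045). Gm10705 stood at 36.3, 12.7 and 45.5 CPM on the left and 38.1, 17.5 and 39.6 CPM on the right of the knockout, and at 41.4, 46.4 and 49.2 CPM on the left and 20.1, 17.9 and 9.95 CPM on the right of wild type. Without pairs neither was called in the interaction. Without the wild-type number 3 Adarb1 stood at -0.45 and was not called (adjusted p = 0.0524), and Gm10705 stood at -1.26 and was called; both were called without each of the other numbers.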

How the results depend on the processing

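The number of genes called between sides in the knockout depended on the design more than the directions did. Without pairs it was 0 under all alternatives run and 35 with the replicate block. The paired count of 35 was 0 without the replicate block, 0 with it as a random effect, 2 with DESeq2, 8 without the count filter (6 shared with the 35), and 1 to 39 over the fits that left out 1 number. RLE size factors gave 31, limma-voom 33 and the 12-library fit 43, all 35 shared. The wild-type paired count of 68 was 8 without the replicate block and 130 without the filter (65 to 89 with 1 number left out). The interaction count of 2 was 0 without the replicate block (124 genes at an unadjusted p under 0.05), 15 without the filter and 2 to 4 with 1 number left out, with 1 of the 2 genes shared without the wild-type number 3. The filter sets how many genes are tested; the cause of the other changes was not tested.

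Of the 33 genes described, RLE size factors kept 29 calls (not Lum, Dact3, Dcx and Rspo3), limma-voom 31, the 12-library fit 33, the unfiltered fit 4 and DESeq2 1; leaving out number 1, 2 or 3 kept 14, 0 and 18. Among genes not called, Hoxaas2 (-0.14) and Hoxaas3 (-0.07) changed sign without number 3, and over the fits that left out 1 number they ranged from -0.32 to 0.00099 and from -0.17 to 0.022.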
